A study of Mus musculus with 36 samples.

Results

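The 9 genes of B cells and lymphoid follicles described here, Cd79a, Cd79b, Ms4a1, Cr2, Cxcr5, Cxcl13, Ccl19, Ccr7 and Ltb, were followed in mouse lung across 10 groups of arrays. They were taken by name as a list, through the gene symbols of the array's annotation, by a rule that uses no measured value, although the list was drawn up with earlier results of these data known. Of the 9 listed genes, 8 had 10 probe sets of their own, and all 8 passed the filter on low values, out of 11599 of 18193 genes that did. Ccl19 had a single probe set that the annotation assigns to 10 symbols, so it is described apart as the shared Ccl19 probe set. Ms4a1 and Cxcl13 had a pair of probe sets each, and the brighter one stood for the gene in the tests.

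Chronically inflamed lungs can form bronchus-associated lymphoid tissue, clusters of B and T cells beside the airways that resemble the follicles of a lymph node. Follicular stromal cells make the chemokine Cxcl13, which draws B cells bearing its receptor Cxcr5, while Ccl19 draws T cells and dendritic cells bearing Ccr7. Lymphocytes display lymphotoxin, of which Ltb is the membrane-anchoring subunit, and its receptor on stromal cells activates the Nfkb2 and Relb branch of NF-κB signalling, which in turn sustains the chemokines. Cd79a and Cd79b are the signalling subunits of the B cell receptor, Ms4a1 is CD20, and Cr2 encodes complement receptors of mature B cells and follicular dendritic cells.

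Lung RNA was measured on single-colour Affymetrix arrays, and the deposited values are log2 intensities made with GCRMA, so a difference of 1 is a doubling. The labels give 5 kinds of mice, all female. KitWsh_MCifngR, KitWsh_MCigeR and KitWsh_MC mice were KitWsh animals given an engraftment labelled MCifngR, MCigeR or MC, KitWsh mice carried the Kit sash allele and had no engraftment, and WT mice were C57BL/6 wild type. KitWsh mice lack mast cells, and the labels do not explain the engraftment codes. The genotype label of KitWsh_MCigeR mice also names FcεRIγ deficiency, without saying whether it belongs to the donor or the recipient. Mice treated with ovalbumin (OVA) received 50 µg in 0.1 ml of phosphate-buffered saline (PBS) by intraperitoneal injection on days 1, 4 and 7, then 20 µg in 30 µl by the nose once a week for 9 weeks, beginning on day 12. Their PBS counterparts had the vehicle alone at the same times. Every OVA group held 4 arrays, as did WT PBS, and the other PBS groups held 3.

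Lung markers were high in all 36 arrays (Sftpc 12.5 to 15.5, Scgb1a1 15.4 to 15.9), and the thymus genes Rag1 and Dntt lay at the floor of the scale, at no more than 2.37. KitWsh_MCigeR PBS replicate 2 stood apart, with a median correlation of 0.543 with the other arrays, against 0.882 to 0.971 for the other 35, and a 3'-minus-5' difference of the actin control of 8.43, against 1.17 to 6.23. Another 3 arrays went against their labels. In WT OVA replicate 4, Kit measured 6.90 where replicates 1 to 3 of that group had 10.6 to 11.0, and its Y-linked genes averaged 7.28. The Y-linked genes averaged 7.71 and 7.30 in KitWsh_MCifngR OVA replicates 2 and 3, and no more than 2.66 in every array outside these 3. Results are therefore given with and without KitWsh_MCigeR PBS replicate 2, and without all 4 of these arrays where that moves a call or a direction.

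Promoter sequences, from 250 bases before to 50 bases after the gene's start, were found in RefSeq for 5 of the 9 genes, on GRCm38.p6. Those of Cd79a and Ltb are shown because these genes had the highest correlation across arrays among the pairs of members, before group means were subtracted. That of Cr2 is shown because its OVA difference ran the other way. Cd79a lies on the plus strand (chr7:24897247-24897546), Ltb on the plus strand (chr17:35194257-35194556) and Cr2 on the minus strand (chr1:195176670-195176969), each printed 5′ to 3′ along the gene. Capitals mark the Ets motif AGGAAGT, which begins 55 bases before the start of Cd79a, and a match to the κB consensus, the site that NF-κB proteins bind, which begins 87 bases before the start of Ltb and reads on the other strand.
Cd79a: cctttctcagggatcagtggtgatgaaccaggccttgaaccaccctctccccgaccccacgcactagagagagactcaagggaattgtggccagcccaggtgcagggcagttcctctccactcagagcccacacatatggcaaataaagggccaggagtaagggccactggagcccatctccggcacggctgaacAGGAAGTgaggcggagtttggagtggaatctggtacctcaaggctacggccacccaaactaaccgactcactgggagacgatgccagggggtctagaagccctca
Ltb: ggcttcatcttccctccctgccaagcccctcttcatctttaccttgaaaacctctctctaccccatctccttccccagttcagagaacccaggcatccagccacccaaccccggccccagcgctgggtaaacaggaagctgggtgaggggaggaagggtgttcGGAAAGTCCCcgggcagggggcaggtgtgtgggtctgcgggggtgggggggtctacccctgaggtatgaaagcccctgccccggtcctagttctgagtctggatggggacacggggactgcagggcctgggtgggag
Cr2: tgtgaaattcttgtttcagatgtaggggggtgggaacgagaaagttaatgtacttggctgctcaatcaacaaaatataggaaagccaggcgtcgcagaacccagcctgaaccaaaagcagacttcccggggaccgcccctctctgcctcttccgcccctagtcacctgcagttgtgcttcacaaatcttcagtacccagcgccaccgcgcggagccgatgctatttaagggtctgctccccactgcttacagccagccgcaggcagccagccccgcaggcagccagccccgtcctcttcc
The 5 motifs searched on both strands were the κB consensus, an Ebf1 form CCCNNGGG, the Ets motif, the octamer ATGCAAAT and the TATA motif TATAAA, none of which overlapped another in these promoters. Among 32851 promoters of the same length, 8.46% held the κB consensus, 13.7% the Ebf1 form, 9.35% the Ets motif, 1.74% the octamer and 13.6% the TATA motif. The κB consensus was settled on after a narrower and a looser spelling had been searched. The Cxcl13 promoter held the TATA motif 46 bases before the start, and none of the motifs was found in the Cr2 and Ccl19 windows. These matches describe letters in a window and not binding.

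Each member varied widely over the 36 arrays. The lowest and highest arrays lay 5.17 log2 units apart for Cd79a, 4.93 for Cd79b and 4.07 for Ms4a1. KitWsh OVA lungs had the highest group mean for 7 of the 8 members. The exception was Cr2, which averaged 6.67 ± 0.10 in KitWsh_MCifngR PBS lungs (SD, n = 3) and 6.47 ± 0.41 in KitWsh OVA lungs (SD, n = 4). When the 10 groups were put in order of their mean, all 72 neighbouring pairs over the 8 members overlapped in range, so no step in these orders lay beyond the spread between arrays. KitWsh OVA replicate 4 alone held the highest value of 7 of the 10 probe sets. The lowest array was KitWsh_MCigeR PBS replicate 2 for 5 probe sets and KitWsh_MCifngR OVA replicate 2 or 3 for 4.

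**Figure D1:**
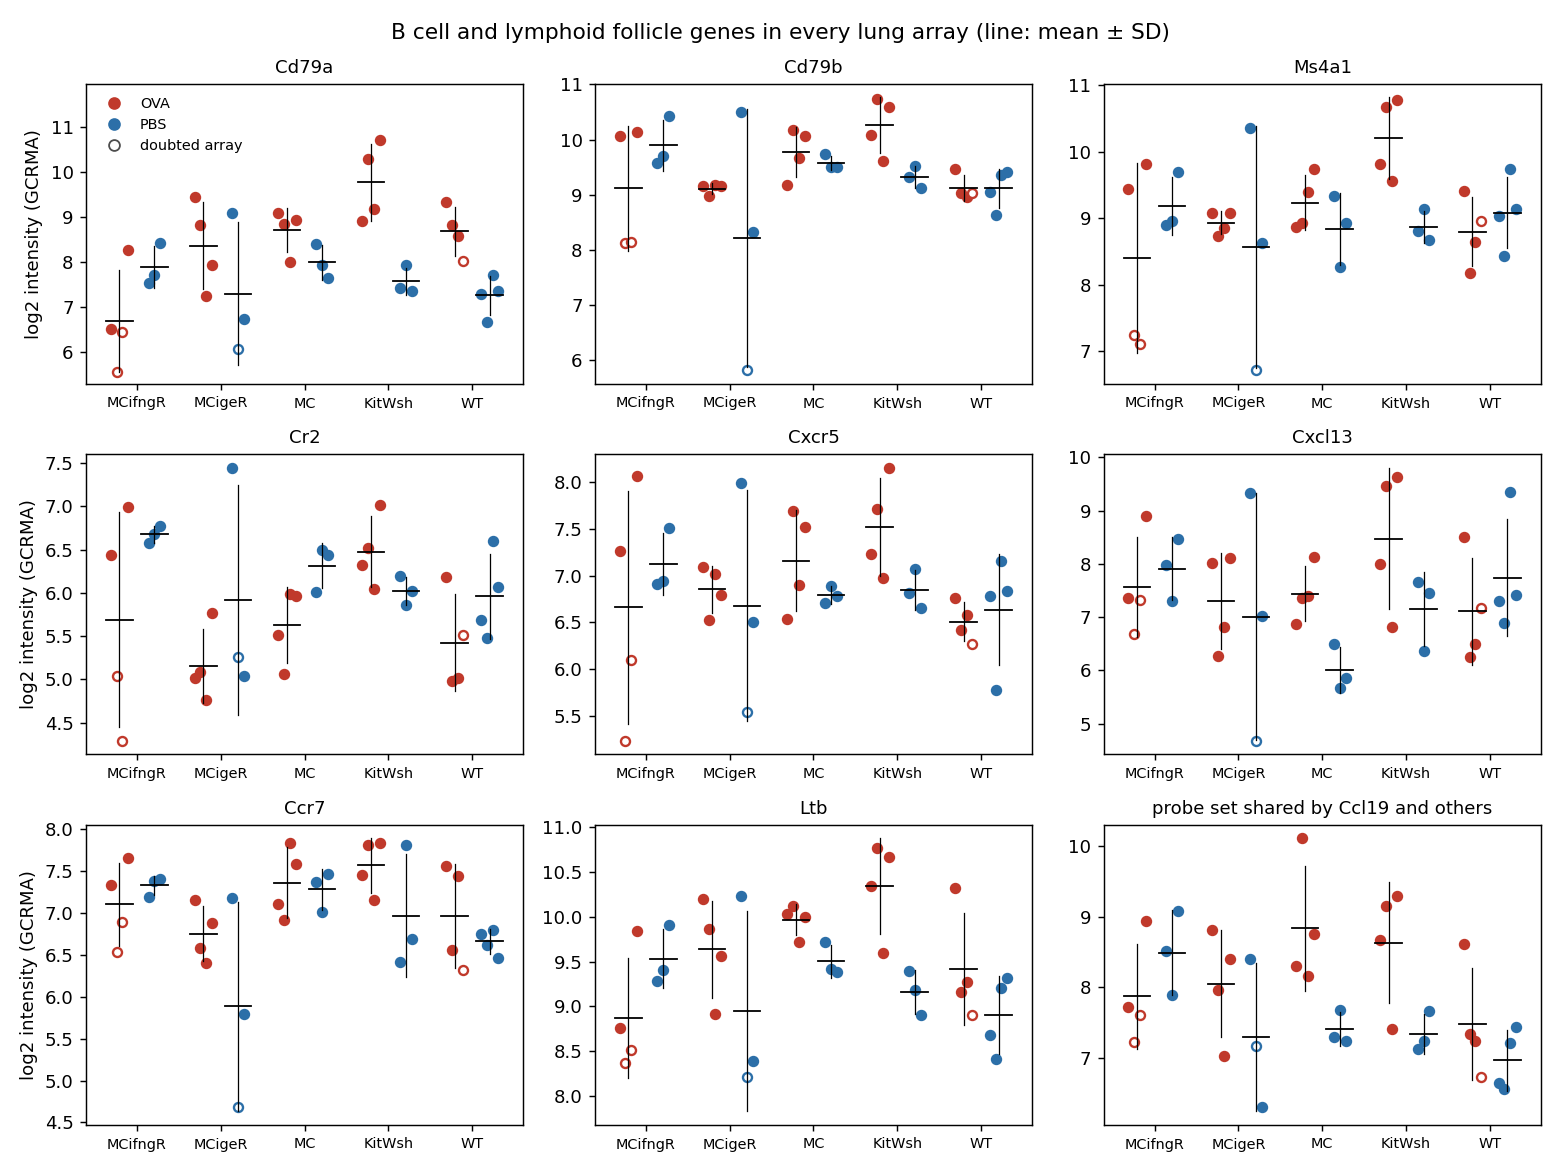
Log2 intensity of the 8 members and of the shared Ccl19 probe set in every array, by engraftment or genotype, with OVA arrays (red) left of PBS arrays (blue). Lines give the group mean ± SD, and open circles are the 4 arrays that stood apart or went against their labels; KitWsh OVA arrays sit highest for most members, with Cd79a at 8.91 to 10.71 there.

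In the mean of the 5 kinds of mice, Cd79a was higher after OVA, and no other member passed the threshold when all arrays were used. In KitWsh_MCifngR mice Cd79a was lower after OVA (-1.20 with all arrays, -0.50 without the 4 arrays). The mean OVA minus PBS difference of Cd79a was 0.85 ± 0.26 (SE), a 1.80-fold higher level (limma, adjusted p = 0.0251). Of the 8 members, 1 was called, against 16.6% of all genes tested, so the count is no larger than that of genes at large. Without KitWsh_MCigeR PBS replicate 2 the Cd79a difference was 0.72 (adjusted p = 0.0314), and Cr2 was called lower as well, at -0.57 (adjusted p = 0.0490), against -0.50 ± 0.22 with all arrays (adjusted p = 0.107). The background was then 27.5%. Without the 4 arrays it was 31.2%, and Cd79a (0.91, adjusted p = 0.00754) and Ltb (0.48, adjusted p = 0.0391) were called higher. Differences were positive for 7 of the 8 members, with a median of 0.288 against 0.0633 over all genes. Without KitWsh_MCigeR PBS replicate 2 these medians were 0.100 and -0.0216. Cr2 was not called without the 4 arrays (-0.37, adjusted p = 0.132). In lung tissue, a change in the number of B cells and a change in RNA per cell cannot be told apart.

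Cd79a, the Igα chain of the B cell receptor, showed its OVA difference in 4 of the 5 kinds of mice. In KitWsh lungs it measured 8.91, 10.28, 9.17 and 10.71 after OVA, against 7.42, 7.92 and 7.35 after PBS. In WT lungs it measured 9.32, 8.81, 8.57 and 8.02 after OVA, against 7.28, 6.66, 7.70 and 7.36 after PBS. Every OVA array lay above every PBS array in both kinds. The difference was 2.20 ± 0.59 in KitWsh mice, 4.60-fold, and 1.43 ± 0.55 in WT mice, 2.70-fold, and neither passed the threshold over all genes (limma, adjusted p = 0.0769 and 0.175). The KitWsh difference passed without KitWsh_MCigeR PBS replicate 2 (adjusted p = 0.0197), an array outside that comparison which enters through the shared estimate of spread. The WT difference passed without the 4 arrays, at 1.65 ± 0.52 (adjusted p = 0.0296), where the background was 18.9%.

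In the engrafted kinds the Cd79a values spread more. KitWsh_MC lungs measured 9.08, 8.84, 7.99 and 8.92 after OVA, against 8.39, 7.92 and 7.64 after PBS. KitWsh_MCigeR lungs measured 9.45, 8.82, 7.24 and 7.94 after OVA, against 9.09, 6.06 and 6.72 after PBS, of which the 6.06 belongs to the array that stood apart. KitWsh_MCifngR lungs measured 6.50, 5.54, 6.44 and 8.26 after OVA, against 7.53, 7.70 and 8.42 after PBS. The OVA and PBS ranges overlapped in all 3 of these kinds, and in KitWsh_MCifngR lungs 3 of the 4 OVA arrays lay below every PBS array.

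**Figure D2:**
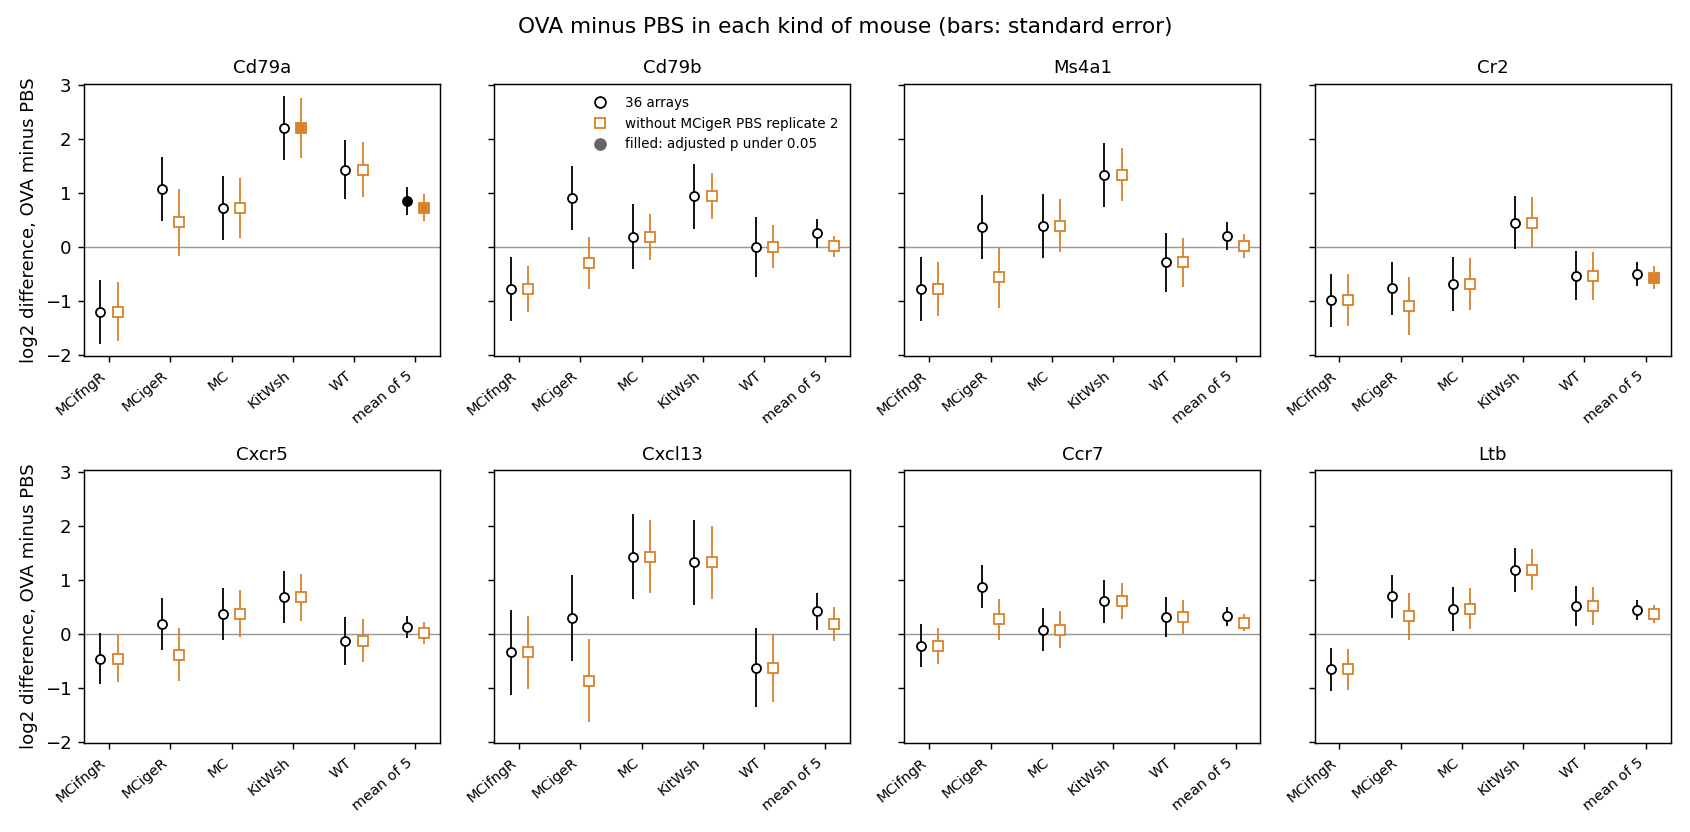
OVA minus PBS difference (log2) of each member in each kind of mouse and in the mean of the 5 kinds, with bars of 1 standard error, for all 36 arrays (circles) and without KitWsh_MCigeR PBS replicate 2 (squares). Filled symbols have an adjusted p under 0.05; they are Cd79a in the mean of the 5 kinds, and without that array also Cd79a in KitWsh mice (2.20) and Cr2 in the mean (-0.57).

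In KitWsh mice all 8 members leaned the same way. Their OVA minus PBS differences ran between 0.45 (Cr2) and 2.20 (Cd79a), with a median of 1.06, where the median of all genes was -0.10. No member was called by limma (0 of 8, background 0.621%). An unadjusted p under 0.05 held for 3 members and for 1514 of the 11599 genes tested. Without KitWsh_MCigeR PBS replicate 2, Cd79a alone was called (background 6.55%), and without the 4 arrays Cd79a, Ltb and Ms4a1 were (adjusted p = 0.0123, 0.0442 and 0.0277, background 9.60%). For 4 members, Cd79a, Cd79b, Ms4a1 and Ltb, every OVA array lay above every PBS array, which held for 7.53% of all genes. T cell genes stood higher in the same arrays, with a mean level over 14 genes of 6.03 to 7.06 in KitWsh OVA lungs and 5.60 to 5.83 in KitWsh PBS lungs, and their part in the members' differences was not tested.

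Cd79b, the Igβ partner of Cd79a, measured 10.09, 10.74, 9.62 and 10.59 in KitWsh OVA lungs, against 9.33, 9.52 and 9.12 in KitWsh PBS lungs, a difference of 0.94 ± 0.60 (adjusted p = 0.559). In WT lungs it measured 9.47, 9.02, 8.95 and 9.02 after OVA, against 9.05, 8.63, 9.36 and 9.41 after PBS, a difference of 0.00 ± 0.55. The KitWsh groups did not overlap, while the WT groups lay across each other. In the mean of the 5 kinds the Cd79b difference was 0.25 ± 0.26 with all arrays and 0.01 ± 0.19 without KitWsh_MCigeR PBS replicate 2.

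Ms4a1, the B cell surface protein CD20, measured 9.82, 10.68, 9.56 and 10.78 in KitWsh OVA lungs, against 8.81, 9.14 and 8.67 in KitWsh PBS lungs, a difference of 1.34 ± 0.59 (adjusted p = 0.321). WT lungs measured 9.41, 8.18, 8.65 and 8.96 after OVA, against 9.03, 8.43, 9.74 and 9.14 after PBS. The KitWsh ranges were separate and the WT ranges overlapped. The other Ms4a1 probe set gave 1.46 ± 0.52 in KitWsh mice (adjusted p = 0.226) and -0.54 ± 0.48 in WT mice. The pair correlated at 0.858 over 35 arrays. In KitWsh_MCigeR lungs, with all arrays, the other probe set averaged 8.52 after OVA and 9.13 after PBS. The brighter one averaged 8.93 and 8.57 there, the opposite direction. Without KitWsh_MCigeR PBS replicate 2 the PBS mean was 9.50 for the brighter probe set and 9.08 for the other. Both were then lower after OVA.

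Cr2, whose products bind complement fragments on antigen, was the one member with lower OVA means in 4 of the 5 kinds when all arrays were used. It was lower in 3 kinds without the 4 arrays, and its difference in KitWsh_MCifngR mice was 0.04. It measured 5.51, 5.06, 5.98 and 5.96 in KitWsh_MC OVA lungs, against 6.01, 6.50 and 6.44 in KitWsh_MC PBS lungs, with no overlap and a difference of -0.69 ± 0.49 (adjusted p = 0.480). In KitWsh_MCigeR lungs it measured 5.02, 5.08, 4.76 and 5.77 after OVA, against 7.45, 5.26 and 5.04 after PBS. KitWsh lungs differed in direction, at 6.33, 6.52, 6.04 and 7.01 after OVA, against 6.19, 5.86 and 6.02 after PBS.

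The receptor Cxcr5 and its ligand Cxcl13 had wide spreads within groups. Cxcr5 measured 7.23, 7.71, 6.97 and 8.15 in KitWsh OVA lungs, against 6.81, 7.07 and 6.65 in KitWsh PBS lungs, a difference of 0.67 ± 0.48. Cxcl13 measured 8.00, 9.46, 6.81 and 9.63 in KitWsh OVA lungs, against 7.65, 6.36 and 7.46 in KitWsh PBS lungs, a difference of 1.32 ± 0.79 (adjusted p = 0.520). Both overlapped between OVA and PBS. In KitWsh_MC lungs Cxcl13 measured 6.87, 7.36, 7.40 and 8.13 after OVA, against 6.49, 5.68 and 5.86 after PBS, with no overlap and a difference of 1.43 ± 0.79 (adjusted p = 0.324). In WT lungs the Cxcl13 difference was -0.63, with 8.50, 6.26, 6.50 and 7.18 after OVA, against 7.30, 6.89, 9.36 and 7.42 after PBS.

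The second Cxcl13 probe set showed the low end of that range more plainly. It measured 4.66, 4.59 and 5.02 in KitWsh_MC PBS lungs, the lowest group and the only one whose range did not touch that of the next group in the order. Both Cxcl13 probe sets correlated at 0.869 over 35 arrays. With all arrays they took opposite directions in WT, KitWsh_MCifngR and KitWsh_MCigeR lungs. The second one averaged 6.76 after OVA and 6.59 after PBS in WT lungs. It averaged 6.12 and 6.00 in KitWsh_MCifngR lungs, and 6.41 and 6.55 in KitWsh_MCigeR lungs. Without KitWsh_MCigeR PBS replicate 2 the KitWsh_MCigeR PBS mean was 8.18 for the brighter probe set, against 7.30 after OVA. That of the second one was 6.89, against 6.41 after OVA, so both were then lower after OVA.

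In KitWsh_MC mice, 7 of the 8 members had positive OVA minus PBS differences, with a median of 0.381, and none was called by limma (background 6.52%) or had an unadjusted p under 0.05. Cxcl13 and Ltb were higher in every OVA array than in any PBS array, as were 12.6% of all genes, and Cr2 was lower in every OVA array, as were 10.0%. For Ltb the lowest OVA array and the highest PBS array both round to 9.72.

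Ccr7, the receptor for Ccl19, measured 7.46, 7.81, 7.16 and 7.84 in KitWsh OVA lungs, against 6.41, 7.81 and 6.68 in KitWsh PBS lungs. The ranges overlapped through 1 PBS array at 7.81. The mean difference over the 5 kinds was 0.33 ± 0.18 (adjusted p = 0.204), and 0.21 without KitWsh_MCigeR PBS replicate 2 (adjusted p = 0.326). The shared Ccl19 probe set measured 8.67, 9.15, 7.41 and 9.29 in KitWsh OVA lungs, against 7.12, 7.24 and 7.66 in KitWsh PBS lungs, and 8.30, 10.11, 8.16 and 8.76 in KitWsh_MC OVA lungs, against 7.30, 7.68 and 7.24 in KitWsh_MC PBS lungs. Its mean difference over the 5 kinds was 0.67 ± 0.23 (limma over all probe sets, adjusted p = 0.0467, and 0.0445 without KitWsh_MCigeR PBS replicate 2). It cannot be assigned to Ccl19 alone.

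Ltb, the lymphotoxin subunit, measured 10.34, 10.77, 9.59 and 10.67 in KitWsh OVA lungs, against 9.40, 9.18 and 8.91 in KitWsh PBS lungs, a difference of 1.18 ± 0.41 (adjusted p = 0.170). In KitWsh_MC lungs it measured 10.03, 10.12, 9.72 and 10.00 after OVA, against 9.72, 9.42 and 9.38 after PBS. OVA and PBS arrays were separate in KitWsh lungs. In KitWsh_MC lungs they only just missed overlapping, with the lowest OVA array at 9.7182 and the highest PBS array at 9.7176. In WT lungs it measured 10.32, 9.16, 9.27 and 8.90 after OVA, against 8.68, 8.41, 9.21 and 9.32 after PBS, and the ranges overlapped. The mean difference over the 5 kinds was 0.44 ± 0.18 (adjusted p = 0.0897).

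Among WT mice, 4 of the 8 members had positive differences and none was called (background 1.36%). Of the members only Cd79a had an unadjusted p under 0.05, as had 1794 of the 11599 genes tested. Cd79a was also the one member without overlap between OVA and PBS, which held in that direction for 7.60% of all genes.

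By the probe sets that stood for the genes, KitWsh_MCifngR lungs were the one kind in which OVA means were lower for all 8 members. The members' median difference was -0.72 against 0.00477 over all genes. None was called (background 0.155%), and 0 had an unadjusted p under 0.05. This direction rested on KitWsh_MCifngR OVA replicates 2 and 3, the arrays with high Y-linked values, which both lay below replicates 1 and 4 for all 8 members. Ms4a1, for instance, measured 9.44, 7.25, 7.11 and 9.82 in KitWsh_MCifngR OVA lungs, against 8.90, 8.96 and 9.70 in KitWsh_MCifngR PBS lungs. Without the 4 arrays, 6 of the 8 differences were positive, with a median of 0.184, and none was called (background 1.66%). Cd79a and Ltb had negative differences there, -0.50 and -0.23. Cd79b showed the same split, at 10.06, 8.12, 8.14 and 10.13 in KitWsh_MCifngR OVA lungs, against 9.57, 9.69 and 10.43 in KitWsh_MCifngR PBS lungs. Cr2 measured 6.44, 5.05, 4.29 and 6.99 in the same OVA lungs, against 6.57, 6.68 and 6.77 in the PBS lungs. For both genes, replicates 1 and 4 lay near or within the range of the PBS arrays and replicates 2 and 3 well under it.

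In KitWsh_MCigeR mice the direction depended on the array that stood apart. Cd79b measured 9.15, 8.97, 9.17 and 9.15 in KitWsh_MCigeR OVA lungs, against 10.50, 5.81 and 8.31 in KitWsh_MCigeR PBS lungs, of which 5.81 is that array. Ltb measured 10.20, 9.86, 8.91 and 9.56 after OVA, against 10.23, 8.21 and 8.40 after PBS. KitWsh_MCigeR PBS replicate 1 was the highest PBS array of all in both, so the PBS group spans the OVA group even without replicate 2. With it, 7 of the 8 differences were positive, the median was 0.528 and the background was 19.0%. Without it, 3 were positive, the median was -0.345 and 0% of all genes were called. No member was called by limma either way. With and without replicate 2, 1 and 0 members had an unadjusted p under 0.05, against 5299 and 737 of the 11599 genes tested.

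Between OVA-treated lungs, the KitWsh mean stood above the WT mean for every member. The KitWsh OVA minus WT OVA differences ran between 0.60 (Ccr7) and 1.41 (Ms4a1), with a median of 1.07 against 0.0137 over all genes. None was called by limma (background 0.121%), while 5 of the 8 had an unadjusted p under 0.05, as had 567 of the 11599 genes tested. Without KitWsh_MCigeR PBS replicate 2 these numbers were 7 of the 8 and 1049 of the 11599. Cd79b, Ms4a1 and Cxcr5 had every KitWsh OVA array above every WT OVA array, which held for 3.03% of all genes. Ms4a1 differed by 1.41 ± 0.55, 2.66-fold (adjusted p = 0.698), and was called without the 4 arrays at 1.47 (adjusted p = 0.0438, background 1.31%). The mean level over 22 other B cell genes was 7.05 to 7.92 in KitWsh OVA lungs and 6.45 to 7.12 in WT OVA lungs, and over 14 T cell genes it was 6.03 to 7.06 and 5.29 to 6.58 in the same groups.

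The test of that difference against the PBS baseline, the OVA response in KitWsh mice minus that in WT mice, called none of the 8 members (background 0.00862%), and none had an unadjusted p under 0.05. All 8 values were positive with a median of 0.868, led by Cxcl13 at 1.95 ± 1.07 (adjusted p = 0.839) and Ms4a1 at 1.63 ± 0.81 (adjusted p = 0.747). In PBS-treated lungs the KitWsh minus WT differences were -0.59 to 0.31, with none called (background 1.18%) and none at an unadjusted p under 0.05.

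Engraftment labelled MC was accompanied by lower values of every member after OVA, none of them called. The KitWsh_MC OVA minus KitWsh OVA differences had a median of -0.667 and ran between -1.06 (Cd79a) and -0.21 (Ccr7), with 0 of 8 called by limma (background 8.85%) and none at an unadjusted p under 0.05. Without the 4 arrays, Ms4a1 was called at -0.97 (adjusted p = 0.0316), where 33.9% of all genes were. Cr2 was lower in every KitWsh_MC OVA array than in any KitWsh OVA array, a pattern of 8.99% of genes. The second Cxcl13 probe set differed by -1.67 ± 0.59 (limma over all probe sets, adjusted p = 0.0699, and 0.0335 without KitWsh_MCigeR PBS replicate 2). T cell genes had a median of -0.685 in the same OVA comparison, with 2 of 12 called lower, and 6 without the 4 arrays. The 3'-minus-5' difference of actin was 2.21 to 6.23 in KitWsh_MC OVA lungs and 1.29 to 2.62 in KitWsh OVA lungs, and that of GAPDH was 2.19 to 6.77 in KitWsh_MC OVA lungs and 0.37 to 2.30 in KitWsh OVA lungs. The part of T cells and of RNA quality in the members' differences was not tested. In PBS-treated lungs KitWsh_MC minus KitWsh differences were -1.15 to 0.42, none called (background 1.20%). The difference between the OVA responses of these kinds called none either (background 0.517%), with 1 of 8 values positive, and no member of these last comparisons had an unadjusted p under 0.05.

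Cd79a fell in KitWsh_MCifngR OVA lungs, at 6.50, 5.54, 6.44 and 8.26, against 9.08, 8.84, 7.99 and 8.92 in KitWsh_MC OVA lungs. KitWsh_MCifngR replicates 1, 2 and 3 lay below all KitWsh_MC arrays, and replicate 4 within their range. The difference was -2.02 ± 0.55, 4.06-fold lower (limma, adjusted p = 0.0158), and 1 of the 8 members was called against a background of 13.2%. Ltb measured 8.75, 8.37, 8.52 and 9.84 in KitWsh_MCifngR OVA lungs, against 10.03, 10.12, 9.72 and 10.00 in KitWsh_MC OVA lungs, a difference of -1.10 ± 0.38 (adjusted p = 0.0503). Without KitWsh_MCigeR PBS replicate 2 both were called (adjusted p = 0.00300 for Cd79a and 0.0162 for Ltb, background 36.7%).

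These Cd79a and Ltb calls depended on the arrays that went against their labels. Without KitWsh_MCifngR OVA replicate 2 the Cd79a difference was -1.64 (adjusted p = 0.0604). Without the 4 arrays it was -1.33 (adjusted p = 0.0817) and that of Ltb was -0.67 (adjusted p = 0.221). No member was then called, against a background of 34.7%. The direction of most members moved as well. With all arrays 2 of the 8 differences in this contrast were positive, with a median of -0.575 against 0.183 over all genes. Without the 4 arrays 6 were positive, with a median of 0.361 against 0.23 over all genes. Replicate 1, which remains then, had a 3'-minus-5' difference of 4.81 for actin and 7.51 for GAPDH, a sign of broken RNA whose part in the result was not tested. The OVA response in KitWsh_MCifngR mice minus that in KitWsh_MC mice was negative for all 8 members, with none called (background 0.0345%). Its median was -1.05 with all arrays and 0.0288 without the 4 arrays. With all arrays 1 member had an unadjusted p under 0.05, against 1167 of the 11599 genes tested.

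The 2 remaining contrasts called no member. KitWsh_MCigeR OVA minus KitWsh_MC OVA differences were negative for all 8, between -0.66 and -0.13 (background 2.93%), and Cd79b was lower in every KitWsh_MCigeR OVA array than in any KitWsh_MC OVA array, as were 7.33% of genes. Between PBS-treated lungs, KitWsh_MCifngR minus KitWsh_MC was led by Cxcl13, at 7.98, 7.30 and 8.46 in KitWsh_MCifngR lungs, against 6.49, 5.68 and 5.86 in KitWsh_MC lungs. That difference was 1.90 ± 0.84 (adjusted p = 0.239, background 2.91%). Cxcl13 was the one member of this contrast with an unadjusted p under 0.05, against 1933 of the 11599 genes tested. Cr2, Cxcr5 and Cxcl13 had KitWsh_MCifngR PBS arrays above all KitWsh_MC PBS arrays, as had 39.3% of all genes.

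Members moved together across arrays to unequal degrees. Over 35 arrays (without KitWsh_MCigeR PBS replicate 2), Cd79a followed Ltb at r = 0.91 (Spearman's rho 0.88), and at 0.88 after group means were subtracted. Cd79b followed Cxcr5 at r = 0.89 (rho 0.88) and Ms4a1 at r = 0.86 (rho 0.81). With group means subtracted these were 0.91 and 0.90, above that of Cd79a with Ltb. The weakest pairs were Cd79a with Cr2 at r = 0.31 (rho 0.22) and Cxcl13 with Ccr7 at r = 0.33 (rho 0.33). With group means subtracted they were at 0.57 and 0.49. The 2 subunits of the B cell receptor, Cd79a and Cd79b, followed each other at r = 0.65 (rho 0.51). These values describe arrays that share a tissue and a normalisation, and carry no test.

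**Figure D3:**
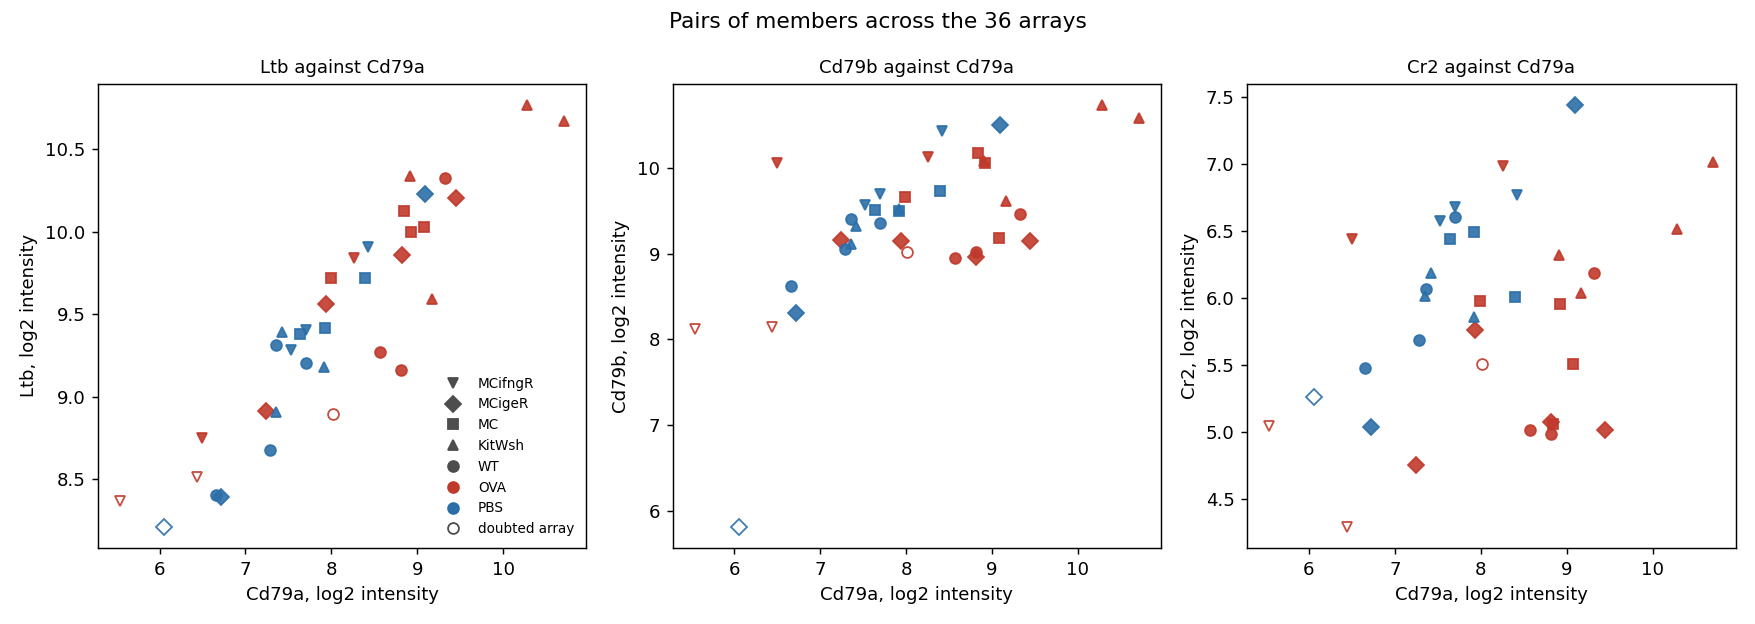
Ltb, Cd79b and Cr2 against Cd79a (log2 intensity) in the 36 arrays, with shapes for the kind of mouse, red for OVA and blue for PBS, and open symbols for the 4 doubted arrays. Ltb lies close to a line in Cd79a (r = 0.91 over 35 arrays), Cd79b follows Cd79a less closely (r = 0.65), and Cr2 is scattered (r = 0.31).

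The gap between Cd79a and Cd79b differed by treatment in WT and KitWsh lungs and overlapped in the engrafted kinds. In each array the Cd79a value minus the Cd79b value has an offset set by the probes, so only its shift between groups can be read. It was -1.005 to -0.15 in WT OVA lungs and -2.05 to -1.66 in WT PBS lungs, and -1.18 to 0.12 in KitWsh OVA lungs against -1.91 to -1.61 in KitWsh PBS lungs, with no overlap in either kind. It overlapped in KitWsh_MC lungs, at -1.67 to -0.10 after OVA and -1.87 to -1.33 after PBS, and in KitWsh_MCigeR lungs, at -1.92 to 0.30 after OVA and -1.59 to 0.25 after PBS. In KitWsh_MCifngR lungs it overlapped too, at -3.57 to -1.70 after OVA and -2.04 to -1.99 after PBS, with a lower mean after OVA (-2.43) than after PBS (-2.02). This measure was chosen after the values were seen and has no test here.

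**Figure D4:**
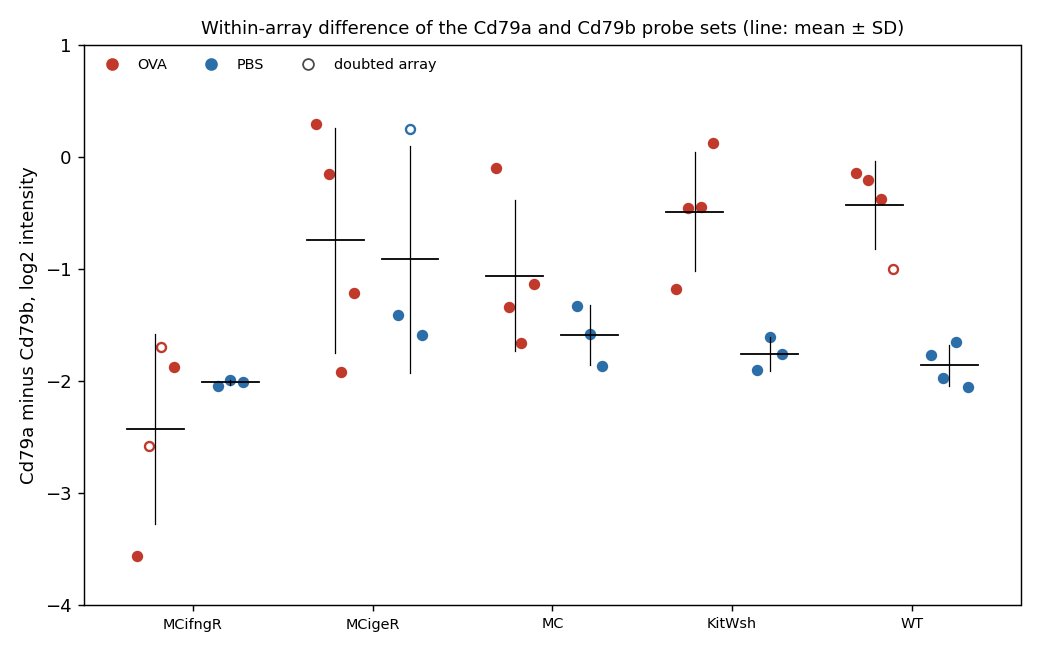
Cd79a minus Cd79b (log2 intensity, within each array) by kind of mouse, OVA (red) left of PBS (blue), with group mean ± SD and open circles for the 4 doubted arrays. WT and KitWsh OVA arrays lie above all their PBS arrays, and KitWsh_MCifngR OVA replicate 1 lies lowest, at -3.57.

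Cd79b and Cxcl13 were set against all other genes by Pearson's r over the 35 arrays. The 5 genes most like Cd79b were Tnfrsf13c (r = 0.927, rho 0.925), Blk (0.920, rho 0.878), Siglecg (0.908, rho 0.853), Fcrla (0.882, rho 0.901) and Bank1 (0.873, rho 0.885). All but Siglecg stood in the list of other B cell genes. Tnfrsf13c is the BAFF receptor, Blk a Src-family kinase of B cells, and Bank1 a B cell scaffold protein. The 5 most like Cxcl13 were Cd83 (r = 0.781, rho 0.749), Mad2l1 (0.770, rho 0.793), Cd52 (0.760, rho 0.659), Cks2 (0.759, rho 0.630) and Slamf6 (0.751, rho 0.706), of which Cd83 stood in a B cell list and Mad2l1 and Cks2 act in cell division.

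Of 24 other B cell genes listed, 20 were tested. In the mean of the 5 kinds, 2 were called higher and 1 lower, a share near the 16.6% of all genes. Cd72, a B cell co-receptor (1.01 ± 0.29, adjusted p = 0.0163), and Pou2af1, a B cell transcriptional coactivator (0.60 ± 0.20, adjusted p = 0.0433), were higher after OVA, and Ebf1, a transcription factor of early B cells that fat and stromal cells also use, was lower (-0.65 ± 0.17, adjusted p = 0.00835). The fat cell gene Adipoq was lower too (-2.30 ± 0.32, adjusted p = 2.83e-05), at 2.35 to 7.48 over the arrays, and its part in the Ebf1 value was not tested. The list's median was 0.102. Without KitWsh_MCigeR PBS replicate 2, Cd72 was called higher, and Ebf1, H2-Ob and Bach2 lower. Leaving out the 4 arrays, 7 of the 20 were called higher and 1 lower, against 31.2% of all genes, and the median was 0.319.

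The list's median had the sign of the members' median in KitWsh, KitWsh_MC and KitWsh_MCifngR mice, but not in the other kinds when all arrays were used. In WT mice the median was 0.176 for the list and -0.0634 for the members. In KitWsh_MCigeR mice 7 of the 8 members were positive (median 0.528), against 9 of the 20 genes of the list (median -0.0816). Without KitWsh_MCigeR PBS replicate 2 both medians were negative there, -0.345 for the members, of which 3 were positive, and -0.206 for the list. In KitWsh mice 18 of its 20 genes had positive OVA minus PBS differences (median 0.875), and 19 of 20 were higher in KitWsh OVA than in WT OVA lungs by value (median 1.01). None was called in either when all arrays were used (background 0.621% and 0.121%). In KitWsh mice 1 of the 20 was called higher without KitWsh_MCigeR PBS replicate 2 (background 6.55%), and 4 without the 4 arrays (background 9.60%). For KitWsh OVA against WT OVA lungs, 4 were called higher without the 4 arrays (background 1.31%). In KitWsh_MCifngR mice none of the 20 was positive (median -0.653), but 15 of 20 were without the 4 arrays (median 0.215). T cell genes had medians of 0.927 in KitWsh mice and 0.766 for KitWsh OVA minus WT OVA, with none of 12 called in either when all arrays were used. In KitWsh mice 3 of the 12 were called higher without KitWsh_MCigeR PBS replicate 2 (background 6.55%) and 5 without the 4 arrays (background 9.60%). For KitWsh OVA against WT OVA lungs none was in either setting (background 0.216% and 1.31%).

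The lymphotoxin and lymphoid stroma list had 17 tested genes, of which 5 were higher and 0 lower in the mean of the 5 kinds, and 6 and 0 without KitWsh_MCigeR PBS replicate 2. Over all genes 8.79% were called higher and 16.6% either way, and 27.5% either way without that array. Nfkb2 (0.78 ± 0.17, adjusted p = 0.00237) and Relb (0.78 ± 0.23, adjusted p = 0.0209), the NF-κB pair downstream of the lymphotoxin receptor, rose. Id2, which lymphoid tissue inducer cells need (0.41 ± 0.11, adjusted p = 0.0110), and Cxcr4, the Cxcl12 receptor (0.30 ± 0.08, adjusted p = 0.0149), rose as well. Of the germinal centre and follicular helper T cell list, 5 of 12 genes were bright enough to test and none was called in that mean by limma with all arrays. Without the 4 arrays 2 were called higher, where 31.2% of all genes were called either way.

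Of 11 plasma cell genes tested, 7 were called higher and 0 lower. These counts were 8 and 0 when KitWsh_MCigeR PBS replicate 2 was left out, with the background of 16.6% and 27.5% given above. Mzb1 (1.46 ± 0.36, adjusted p = 0.00585), Derl3 (1.29 ± 0.30, adjusted p = 0.00362) and Fkbp11 (1.01 ± 0.18, adjusted p = 0.000474) serve the endoplasmic reticulum of secreting cells, and Irf4 (0.77 ± 0.20, adjusted p = 0.00836) is a transcription factor of plasma cells. Of 12 T cell genes tested, Cd5 (0.94 ± 0.21, adjusted p = 0.00246) and Lat (0.67 ± 0.22, adjusted p = 0.0329) rose, and of 8 dendritic cell genes Itgax (1.25 ± 0.25, adjusted p = 0.00120) and Flt3 (0.60 ± 0.14, adjusted p = 0.00419). The count of 2 of 12 T cell genes was near the 16.6% of all genes. Without the 4 arrays, 31.2% of all genes were called either way. In that setting 10 of the 12 T cell genes and 9 of the 11 plasma cell genes were called higher, as were 2 of the 8 members. Of the 8 dendritic cell genes 3 were then called higher and 1 lower. Itgax is also expressed by lung macrophages and Cd5 by some B cells.

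**Figure D5:**
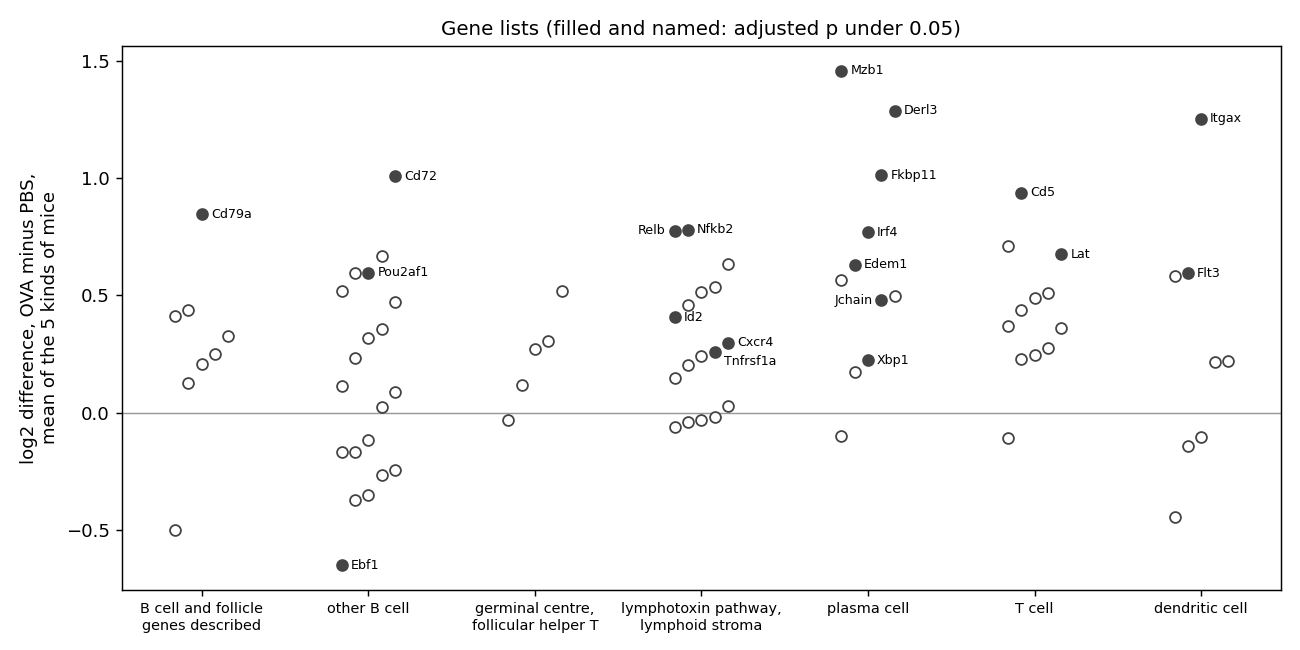
OVA minus PBS difference (log2, mean of the 5 kinds of mice) of every tested gene of 7 lists, 1 point a gene, filled and named where the adjusted p is under 0.05. Among the described members Cd79a is filled at 0.85, while the plasma cell list has 7 filled points, all above 0.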

How the data were processed

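The study measured lung RNA of 36 mouse samples, 1 array each. The deposited values are log2 intensities of 45101 probe sets that the authors made with GCRMA (probe background correction, quantile normalisation, summary per probe set), per the submitters' processing notes, which give no version. They were used as deposited. Values near the floor of 2.19 are set by the background model.

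Of the probe sets, 34945 had 1 symbol in GEO's annotation, 932 several and 9160 none, besides 64 controls. The probe set of highest mean stood for each gene, and the 11599 genes with log2 over 5 in at least 3 arrays were tested. The groups' means were fitted with limma 3.58.1 in R 4.3.3 (lmFit, eBayes, 26 residual degrees of freedom, 25 without 1 array). In 16 comparisons, a gene was called at a two-sided Benjamini-Hochberg adjusted p under 0.05 over all genes. Percentages called "background" are shares of all genes tested that met the same rule. Errors are the SD between arrays for means and the SE for differences. The procedure was tested on simulated data.

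The members, the other gene lists and the alternatives were chosen with earlier results of these data known. All members were named; other lists were named by up to 4 called genes of smallest adjusted p, and genes called only without 1 array were named after their values were seen. Nothing in the labels shows that each sample came from its own animal, and the p-values cover only the spread among the samples given. The number of arrays limits the precision. Alternatives were other filters, normalisations, probe set rules, array weights, the compared groups alone and arrays left out.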

Additional observations from a re-analysis of the deposited data

Results flagged for a closer look

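Among the 48 groups of 4 arrays examined (6 groups for each of 8 members), 2 held an array far from the other 3, where chance alone gives about 1 in 20 groups. Cd79b measured 9.47 in WT OVA replicate 1, against 8.95 to 9.02 in the other 3 arrays of that group. Cd79b measured 8.97 in KitWsh_MCigeR OVA replicate 2, against 9.15 to 9.17 in the others. Both gaps are small in log2 units and arise because the remaining arrays lie close together.

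Cr2 took opposite directions in a pair of kinds. Its OVA minus PBS difference was -0.76 in KitWsh_MCigeR mice and 0.45 in KitWsh mice, a gap of -1.21, and this difference was not tested. KitWsh_MCigeR PBS replicate 2 enters the KitWsh_MCigeR value.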

How the results depend on the processing

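Each setting was compared with the main fit of all arrays, and no member value called in either had the opposite sign in the other. In this comparison 288 counts of called members stayed as reported while 35 moved. Directions could still differ between settings. In KitWsh_MCifngR mice 0 of the 8 OVA minus PBS differences were positive with all arrays, and 6 were without the 4 arrays. Cd79a in the mean of the 5 kinds was called in all 44 settings tried (0.72 to 1.03, adjusted p 0.00225 to 0.0455). Cd79a in KitWsh_MCifngR OVA against KitWsh_MC OVA lost its call in 3 settings: without the 4 arrays, with the compared groups alone (adjusted p = 0.0535) and without KitWsh_MCifngR OVA replicate 2. Array weights, which give the arrays that stand apart less influence, raised the counts most: 2 members in WT OVA against PBS, 7 in KitWsh, 6 in KitWsh_MCifngR, 2 in the mean of the 5 kinds, 4 in the KitWsh minus WT response, 4 in the KitWsh_MCifngR minus KitWsh_MC response, 7 in KitWsh OVA against WT OVA, 3 in KitWsh_MC OVA against KitWsh OVA, 4 in KitWsh_MCifngR OVA against KitWsh_MC OVA and 1 in KitWsh_MCifngR PBS against KitWsh_MC PBS; the cause was not tested. With the compared groups alone the counts were 1 in WT, 3 in KitWsh, 1 in KitWsh_MC, 0 in KitWsh_MCifngR OVA against KitWsh_MC OVA and 1 in KitWsh_MCifngR PBS against KitWsh_MC PBS. Without the 4 arrays they were 1 in WT, 3 in KitWsh, 2 in the mean of the 5 kinds, 1 in KitWsh OVA against WT OVA, 1 in KitWsh_MC OVA against KitWsh OVA and 0 in KitWsh_MCifngR OVA against KitWsh_MC OVA. Median centring and quantile normalisation each gave 2 in the mean and 2 in KitWsh_MCifngR OVA against KitWsh_MC OVA. The 6 members called in KitWsh_MCifngR under array weights were lower after OVA, the direction that rested on the arrays with high Y-linked values. Shares of all genes called are not given here for array weights, the compared groups alone or these normalisations. Those counts therefore have no background and cannot be read as larger than those of genes at large.

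Leaving out 1 array at a time gave 0 to 1 called members in KitWsh (1 without KitWsh OVA replicate 1 or KitWsh_MCigeR PBS replicate 2), 0 to 2 in KitWsh_MCifngR OVA against KitWsh_MC OVA, 0 to 4 in KitWsh_MCigeR (4 without KitWsh_MCigeR PBS replicate 1) and 1 to 3 in the mean of the 5 kinds (3 without KitWsh_MCigeR PBS replicate 1). Without KitWsh_MCigeR PBS replicate 1, that PBS group still holds replicate 2, the array that stood apart (median correlation 0.543). In KitWsh_MCigeR mice 19.0% of all genes were called with all arrays and 0% without replicate 2. Shares of all genes are given only for leaving out KitWsh_MCigeR PBS replicate 2, so the other counts have no background here. No paired analysis was possible because the labels number no replicates. Groups of 3 or 4 arrays and the wide spread of B cell genes within groups limit what could be called.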
